A study of Mus musculus with 4 samples.

Results

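The genes described here are 10 genes that mark mature neutrophils, the short-lived granulocytes of the blood: Retnlg, S100a8, S100a9, Mmp9, Csf3r, Il1r2, Ly6g, Stfa2l1, Clec4d and Trem1. They were found as every array probe whose only gene symbol is one of these names, which gave 15 of 45281 probes and 9 of the 19057 genes that have a probe with a single symbol. No probe carries the symbol Ly6g, so this gene has no value here. Of the 15 probes, 9 lay above background on all 4 arrays, 2 on some of the arrays and 4 on no array.

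The 4 arrays hold RNA of sorted spleen cells from BXD2 mice, a recombinant inbred strain with spontaneous lupus-like disease, all aged 2.5 months and killed 10 hours after an injection. The sort was for marginal zone macrophages, the phagocytes at the edge of the splenic white pulp, as cells that carry SIGN-R1 with low CD11b, without I-Ab and without the macrophage antigen encoded by Adgre1. A pair of control arrays came from BXD2 mice given PBS, 1 array (called the knockout array after its label) from BXD2-Ifnar-/- mice given PBS, a genotype without the type I interferon receptor, and 1 array (the Fc-treated array) from BXD2 mice that received 25 µg of sLTβR-Fc intravenously. This protein is a lymphotoxin β receptor decoy that takes up the receptor's ligands. Each array pools the cells of 2 mice, neither the knockout nor the Fc-treated array has a replicate, and a group with a control Fc protein is lacking among the arrays used here, so blockade of the receptor and other effects of the injected protein cannot be told apart.

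Neutrophils mature in the bone marrow through stages that fill different granules in turn. Azurophil granules with myeloperoxidase and serine proteases are made first, secondary granules with lactoferrin next, and gelatinase granules with MMP9 late, while genes for calprotectin and for surface receptors run high in the mature cell. G-CSF, acting through the receptor encoded by Csf3r, drives this maturation. Calprotectin, the pair of S100A8 and S100A9, makes up much of the neutrophil cytosol and acts as an alarm signal when released. Il1r2 encodes a decoy receptor that binds interleukin-1 without signalling, Trem1 and Clec4d encode activating surface receptors, Stfa2l1 encodes a relative of the stefin protease inhibitors, and Retnlg encodes a secreted protein of the resistin family.

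Stretches of 250 bases before a RefSeq start site are shown for S100a8, S100a9 and Il1r2, the members that fell on the knockout array, and for Retnlg, the member that rose there. The Il1r2 stretch lies inside the span of the gene, which begins at 40084692, and so precedes a later start site. The stretches shown were taken as the table of promoters gives them. All 4 are from build GRCm38.p6, at chr3:90668821-90669070 on the + strand for S100a8, chr3:90695722-90695971 on the - strand for S100a9, chr1:40085843-40086092 on the + strand for Il1r2 and chr16:48872358-48872607 on the + strand for Retnlg. Capitals mark matches on either strand to 4 motifs, TTGCNNAA of the C/EBP factors of granulocytes, GAGGAAGT of PU.1, TTCNNNGAA of STAT factors (GAS) and the κB motif of NF-κB.
S100a8: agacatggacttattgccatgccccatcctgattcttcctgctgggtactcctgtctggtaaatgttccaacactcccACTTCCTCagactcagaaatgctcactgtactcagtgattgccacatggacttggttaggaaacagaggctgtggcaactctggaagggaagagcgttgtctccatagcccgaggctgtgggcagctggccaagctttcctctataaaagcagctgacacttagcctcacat
S100a9: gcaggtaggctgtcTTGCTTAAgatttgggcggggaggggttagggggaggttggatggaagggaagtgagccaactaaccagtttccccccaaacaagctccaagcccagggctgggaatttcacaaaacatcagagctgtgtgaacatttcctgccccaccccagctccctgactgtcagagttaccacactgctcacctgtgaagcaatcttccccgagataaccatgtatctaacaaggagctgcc
Il1r2: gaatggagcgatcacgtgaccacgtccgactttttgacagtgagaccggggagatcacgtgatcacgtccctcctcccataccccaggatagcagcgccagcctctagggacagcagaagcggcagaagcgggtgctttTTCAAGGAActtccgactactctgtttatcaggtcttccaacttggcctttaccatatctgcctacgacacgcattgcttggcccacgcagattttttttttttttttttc
Retnlg: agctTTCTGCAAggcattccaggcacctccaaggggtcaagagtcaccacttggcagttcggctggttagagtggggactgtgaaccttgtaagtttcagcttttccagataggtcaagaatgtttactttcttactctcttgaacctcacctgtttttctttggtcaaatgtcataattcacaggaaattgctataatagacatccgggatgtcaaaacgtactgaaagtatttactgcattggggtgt
The C/EBP letters occurred in the S100a9 window, from position -236, and in the Retnlg window, from position -246, and 9.56% of the 32851 windows of this length in the RefSeq table hold them. The PU.1 letters occurred in the S100a8 window at -172, against 2.44% of all windows, and the GAS letters in the Il1r2 window at -111, against 7.02%. The κB motif, found in 4.77% of all windows, matched none of these 4 windows, and no match overlapped another. S100a8 and S100a9 shared none of the 4 motifs, and the member that rose shared the C/EBP letters with S100a9.

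The array values are linear fluorescence intensities per probe with background left in them. Between 51.1% and 53.0% of the probes lay above their array's background limit, which was 107 to 116 in the deposited values. Values below are quantile normalised between arrays. The control arrays had 44 tested probes that stood 2-fold or more apart, and the other pairings of the 4 arrays had 369 to 576. Ifnar1, a chain of the receptor that the knockout label names, read 157 and 149 in the controls, 191 on the knockout array and 117 on the Fc-treated array, so it was not lower on the array labelled as the knockout. Where its probe lies relative to the deleted part is not known here. The label is thus left unchecked by it, and each direction given for that array rests on the label. Of 6 marker genes listed for the sorted cell, 4 were above background on all 4 arrays. The SIGN-R1 gene Cd209b had control values of 127 and 130.1, with 152 on the knockout array and 145 on the Fc-treated array, all near background. Marco, a scavenger receptor, read 252 and 162 in the controls, 181 on the knockout array and 168 on the Fc-treated array, and Nr1h3 170 and 136, 163 and 179. Cd209d, a SIGN-R family lectin, read 216 and 306 in the controls and 315 on the Fc-treated array, and 1304 on the knockout array, where it was called 5.08-fold higher. Cd5l and Siglec1 were above background on no array. Adgre1, whose product the gate excluded, read 629 and 306 in the controls, 1017 on the knockout array and 631 on the Fc-treated array. Itgam, the CD11b gene that neutrophils carry, read between 109 and 118 on the 4 arrays and was above background on 3 of them.

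The calprotectin genes and Il1r2 were lower on the knockout array than the control mean, by 2.93-fold to 4.94-fold, and lay below each control array, while Retnlg was 4.54-fold higher there. The G-CSF receptor gene Csf3r reached 2.42-fold the control mean on the Fc-treated array, and S100a8 1.90-fold. Mmp9, Clec4d and Trem1 were not called in any comparison. The members did not move together on either array. In RNA of pooled cells, fewer cells of a type and less RNA per cell cannot be told apart.

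**Figure D1:**
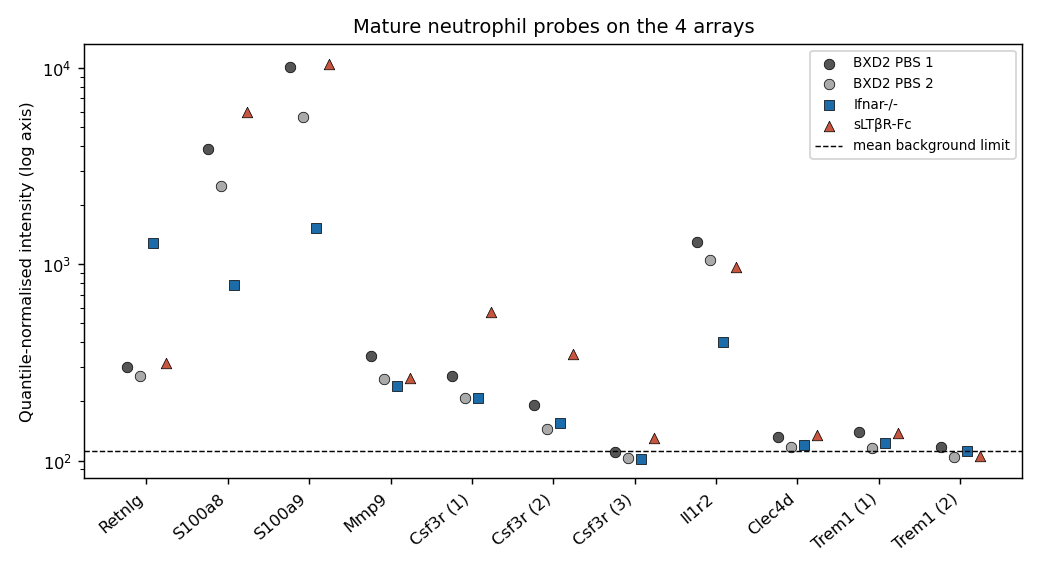
Quantile-normalised intensity (log axis) of the 11 member probes above background on at least 1 array, with 1 point per array and several probes of a gene numbered from the brightest; the dashed line is the mean background limit of 111. S100a8 and S100a9 are lowest on the knockout array (782 and 1528), Retnlg is highest there (1286), and the first Csf3r probe is highest on the Fc-treated array (572).

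S100a9, the larger calprotectin subunit, read 10078 and 5648 in the controls, 1528 on the knockout array and 10518 on the Fc-treated array. The knockout array was far below both controls, and the Fc-treated array lay just above the brighter control. Against the control mean S100a9 fell by 2.30 ± 0.19 (SE) on the log2 scale on the knockout array, with a limma adjusted p of 4.30e-12, and was the ninth lowest of the 23427 probes tested in that comparison (rank 9). Its difference on the Fc-treated array was 0.48 ± 0.19 with a limma adjusted p of 0.0920, so it was not called, and the 95% interval ran from 0.095 to 0.86. Scaling the arrays to a common 75th percentile gave 0.84 for this difference and made it a call.

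S100a8, its partner subunit, read 3877 and 2510 in the controls, 782 on the knockout array and 5939 on the Fc-treated array. The order of the arrays was that of S100a9, with the knockout array lowest and the Fc-treated array highest. It fell by 2.00 ± 0.22 on the log2 scale on the knockout array (limma adjusted p 3.18e-09) and rose by 0.93 ± 0.22 on the Fc-treated array (limma adjusted p 0.00194). The second call was lost in the values as deposited (0.39, limma adjusted p 0.255) and in limma without a mean-variance trend (adjusted p 0.108). The controls themselves stood 1.54-fold apart for S100a8 and 1.78-fold apart for S100a9, with the first control array higher in both.

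Il1r2, the interleukin-1 decoy receptor gene, read 1305 and 1053 in the controls, 400.2 on the knockout array and 966 on the Fc-treated array. The knockout array stood apart from the other 3, of which the Fc-treated array was the lowest. It fell by 1.55 ± 0.23 on the log2 scale on the knockout array (limma adjusted p 1.91e-06). On the Fc-treated array the difference was -0.28 ± 0.23 (limma adjusted p 0.467, 95% interval -0.73 to 0.18), and it was -0.998 and called before normalisation, in the deposited values, whose median over all probes was -0.19.

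Retnlg went the other way. It read 300 and 268 in the controls, 1286 on the knockout array and 315 on the Fc-treated array, so that the knockout array alone stood high. It rose by 2.18 ± 0.20 on the log2 scale (limma adjusted p 4.05e-11) and was the fourth highest of all probes tested in this comparison (rank 4). The difference on the Fc-treated array was 0.15 ± 0.20 (limma adjusted p 0.681, 95% interval -0.25 to 0.54). Retnlg has 1 probe, so no further probe of the gene checks this value. Of its relatives in the resistin family, Retn and Retnlb were above background on no array, and Retnla, a product of alternatively activated macrophages, read 115 and 116 in the controls, 115 on the knockout array and 143 on the Fc-treated array.

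Csf3r has 5 probes, of which 3 were above background on at least 1 array. The brightest read 269 and 208 in the controls, 207 on the knockout array and 572 on the Fc-treated array, and the next read 192 and 144, 156 and 348. On both probes the Fc-treated array alone stood high. They rose there by 1.27 ± 0.17 and 1.07 ± 0.15 on the log2 scale (limma adjusted p 5.30e-07 and 5.79e-07). The third probe was above background on the Fc-treated array only, where it read 130.4 against 111 and 103 in the controls, at least 1.17-fold higher when the controls are raised to the dimmest signal that passed their background limits (limma adjusted p 0.0167). That call was lost in the values as deposited, with cyclic loess and in limma without a trend (adjusted p 0.147, 0.137 and 0.188). On the knockout array the brightest probe differed by -0.19 ± 0.17, with a 95% interval from -0.54 to 0.16. The remaining 2 Csf3r probes were above background on no array.

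Mmp9, the gelatinase of late granules, read 342 and 261 in the controls, 239 on the knockout array and 263 on the Fc-treated array. It was lowest on the knockout array, where the difference of -0.32 ± 0.17 had a limma adjusted p of 0.260, and the Fc-treated array lay between the controls. In the values as deposited both differences were called, at -0.62 and -0.73 (limma adjusted p 0.0370 and 0.00698), against medians of -0.14 and -0.19 over all probes. Clec4d, a C-type lectin receptor that signals through Fc receptor γ chain, read 132 and 118 in the controls, 120.0 on the knockout array and 135 on the Fc-treated array, and its deposited values were 1.06 to 1.23 times the limits of the arrays. Trem1, an activating receptor that signals through DAP12, read 140.1 and 116, 123 and 138 on its brighter probe. For Clec4d and this Trem1 probe all 4 values lay close to background, and the knockout value lay between those of the controls. The second Trem1 probe was above background on the first control array and the knockout array only (118 and 112). Both Stfa2l1 probes were above background on no array.

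The lone arrays stood farther apart from each other than the knockout array stood from the controls in S100a8, S100a9 and Csf3r, and less far in Il1r2, Retnlg and Mmp9. S100a8 was 7.60-fold lower and S100a9 6.88-fold lower on the knockout array than on the Fc-treated array (limma adjusted p 4.13e-12 and 5.51e-13). Csf3r on its brightest probe was 2.76-fold lower and Il1r2 2.41-fold lower, while Retnlg was 4.09-fold higher. The Il1r2 call was lost in the values as deposited (-0.87, limma adjusted p 0.0805). The 95% intervals of this difference ran from -0.54 to 0.25 for Mmp9, from -0.40 to 0.057 for Clec4d and from -0.41 to 0.072 for the brighter Trem1 probe.

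**Figure D2:**
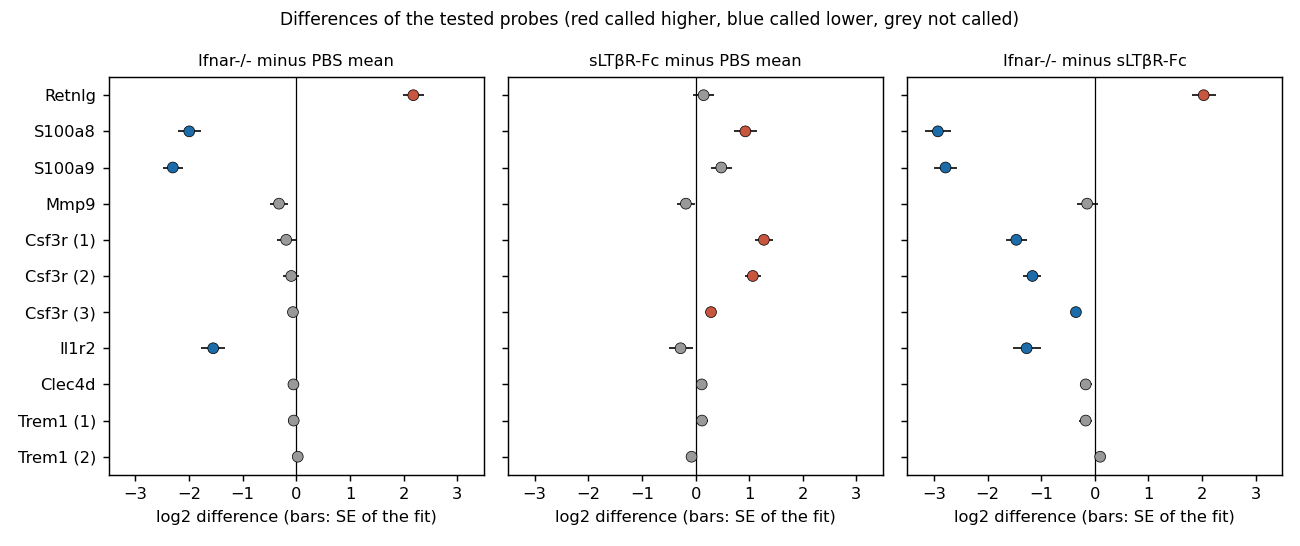
Log2 difference of each tested member probe in the 3 comparisons, with the SE of the limma fit as bars and colour for the calls. S100a8, S100a9 and Il1r2 lie at -2.00, -2.30 and -1.55 on the knockout array with Retnlg at 2.18, and the 3 Csf3r probes and S100a8 are the called points on the Fc-treated array.

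Of the 15 member probes 11 were tested. On the knockout array 3 of these 11 were called lower and 1 higher, where 5.81% of all 23427 probes tested were called lower and 5.39% higher. On the Fc-treated array 4 member probes were called higher, 3 of them of Csf3r, against 6.55% of all probes (6.67% were called lower). Between the lone arrays 6 member probes of 4 genes were called lower on the knockout array, 3 of them of Csf3r, and 1 was called higher. Of all probes 4.10% were called lower and 4.04% higher. In the values as deposited the split of all calls moved to 329 higher and 3366 lower on the knockout array (1263 and 1361 after normalisation) and to 226 and 7507 on the Fc-treated array (1534 and 1562). With a common 75th percentile it was 13009 and 952 on the Fc-treated array. All 11 tested member probes read lower on the second control array than on the first, as did 48.0% of all tested probes, by 0.10 to 0.84 on the log2 scale in size. Every call rests on the spread of these 2 control arrays, which the knockout and Fc-treated arrays are assumed to share. The fit draws a probe's spread mostly from other probes, with 42.7 prior degrees of freedom beside 1 residual degree. An SE can therefore be much smaller than the gap between a gene's own controls. For S100a9 the SE of the difference was 0.19 and that gap 0.84 on the log2 scale, which are unlike measures. The p-values of such genes rest on a smaller spread than their own controls show, so they can be too low. With a floor at the background limit, or with background subtracted, limma called 0 of 23427 probes in every comparison, so every member call was lost there. At an unadjusted p under 0.05 limma had 4509 and 3913 probes for the knockout array, 5240 and 4613 for the Fc-treated array, and 4936 and 3408 between the lone arrays. On the knockout array S100a8, S100a9, Il1r2 and Retnlg stayed 2-fold or more from each control array in those values. The share of all probes that did so in those values is not given here. In the values used here it was 1.26%, which is not a like share.

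Each member's pattern was set against those of 10630 other genes above background on all 4 arrays, by the distance between log2 values centred over the 4 arrays. The gene nearest to S100a8 was S100a9 and the reverse, at a distance of 0.42. The next nearest to S100a9 was Chil3, a chitinase-like secreted protein of granulocytes and macrophages, which read 988 and 386 in the controls, 152 on the knockout array and 711 on the Fc-treated array. After Chil3 came Mt1, at 3340, 2748, 758 and 3459 in the same order. The next nearest to S100a8 was Ctsg, the azurophil protease cathepsin G, at 8764, 6632, 2732 and 19944. After Ctsg came Mcpt8, a mast cell and basophil marker, at 4958, 5768, 1717 and 10963. Il1r2 lay nearest to Lmnb1, a nuclear lamin (1902, 1564, 519 and 1356), and Plk1, a mitotic kinase (1352, 1158, 432 and 1155), both at a distance of 0.15. Retnlg lay nearest to Apol7c, an apolipoprotein L gene (266, 241, 933 and 301), and the lectin gene Cd209d, whose values are given above. Csf3r lay nearest to F10, coagulation factor X (181, 145, 141 and 378). These are likenesses over 4 values each, and patterns of probes near background, such as Clec4d and Trem1, are close to those of many genes.

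**Figure D3:**
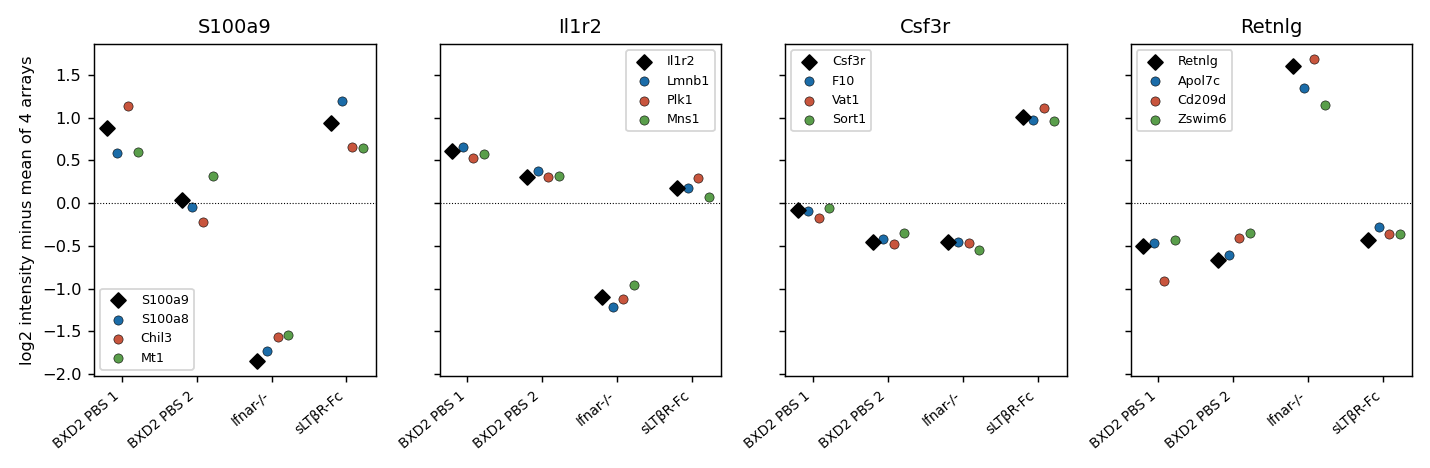
Log2 intensity minus the mean of the 4 arrays for S100a9, Il1r2, Csf3r and Retnlg (diamonds) and the 3 genes nearest to each (circles), by array. S100a9 and Il1r2 are low on the knockout array, Csf3r is high on the Fc-treated array, and Retnlg is high on the knockout array with Apol7c and Cd209d.

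Genes of the neutrophil granules moved as well, those of secondary granules mostly on the knockout array and those of azurophil granules on both lone arrays. All 10 secondary granule genes listed were tested, each by its brightest probe, and 8 fell on the knockout array, where 6.19% of the 14448 genes tested were called lower and 5.97% higher. Ltf, lactoferrin, read 2811 and 1617 in the controls, 215 on the knockout array and 2138 on the Fc-treated array, and fell by 3.31 ± 0.25 on the log2 scale, while its further probe had a difference of -1.005. Camp, the cathelicidin precursor, read 2641 and 1324 in the controls, 197 and 1555, and fell by 3.25 ± 0.26. Lcn2, an iron-siderophore binding lipocalin, read 513 and 319 in the controls, 120 and 464. In limma without a trend 3 of the 10 genes were called lower on the knockout array, Ltf, Camp and Lcn2. The median of the list was -0.94 on the knockout array and 0.048 on the Fc-treated array, against 0.015 and 0.018 over all genes. Against the second control array alone the medians were -0.60 and 0.32, against the first alone -1.28 and -0.22, and in the values as deposited the sLTβR-Fc median was -0.39. Hp, haptoglobin, was the 1 gene of this list called on the Fc-treated array, at 2913 against 1102 and 639, while its further probes had a median of 0.20. On the knockout array, where Hp was called lower, they had a median of -0.058.

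Azurophil granule genes fell on the knockout array and rose on the Fc-treated array. Mpo, Elane, Prtn3, Ctsg and Ms4a3, 5 of the 7 genes in this list, were called lower on the first and higher on the second, where 7.96% of all genes tested were called higher. The list's median was -0.86 on the first and 1.39 on the second. Both comparisons use the same controls. Elane, neutrophil elastase, read 1039 and 771 in the controls, 493 on the knockout array and 5095 on the Fc-treated array. Ctsg read 2732 and 19944 on these arrays, as given above, and Prtn3, proteinase 3, read 3985 and 2980 in the controls, 1541 and 12678. Mpo, myeloperoxidase, fell by 0.83 ± 0.098 on the log2 scale on the knockout array and rose by 0.52 ± 0.098 on the Fc-treated array, where its 3 further probes had a median of 1.67 (-0.77 on the knockout array). In limma without a trend 2 of these genes, Ctsg and Prtn3, were called lower on the knockout array, and 4 were called higher on the Fc-treated array, without Mpo. Igsf6 and Calr, the other 2 genes of the list, are not granule contents and were not called in either comparison.

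Further genes of mature neutrophils were less uniform. Of 20 listed, 17 were tested. On the knockout array 3 were called lower, where 6.19% of all genes tested were called lower and 5.97% higher. All 3 calls were lost in limma without a trend (adjusted p 0.175 to 0.222). Lrg1, a secreted glycoprotein of granules, read 1335 and 492 in the controls and 300 there (log2 -1.43 ± 0.29, and -2.15 or -0.71 against the first or the second control array alone). Wfdc21, an antimicrobial whey acidic protein gene, read 462 and 270 against 190 (log2 -0.90 ± 0.21, and -1.29 or -0.51). Fpr2, a formyl peptide receptor, read 470 and 272 against 194 (log2 -0.88 ± 0.20, and -1.28 or -0.49). In all 3 genes the controls stood farther apart from each other than the second control array stood from the knockout array. Il1b, interleukin-1β, rose there by 0.88 ± 0.28, but its controls read 890 and 360 against 1042. Its difference was 0.23 against the first control array alone. The Il1b call was kept in 4 of 10 tested alternatives, and was lost in the values as deposited, with cyclic loess and without a trend. On the Fc-treated array, where 7.96% of all genes tested were called higher, 7 of the 17 were called higher. Among these were Slpi, a secreted inhibitor of leukocyte elastase (1005 against 422 and 340), and Hdc (10917 against 4613 and 4628). Hdc encodes the histamine-forming enzyme that basophils and mast cells also carry. Lst1, a leukocyte membrane protein gene (734 against 373 and 262), rose as well, and so did Wfdc21 (547), which was called lower on the knockout array. The count of 7 became 2 higher and 3 lower in the values as deposited, 12 higher with a common 75th percentile, and 4 with cyclic loess or without a trend. Cxcr2, the chemokine receptor that brings neutrophils to tissue, read 239 and 219 in the controls, 226 on the knockout array and 190.5 on the Fc-treated array and was not called. The median of the list was -0.016 on the knockout array and 0.55 on the Fc-treated array. The latter was 0.068 without the second control array and -0.068 in the values as deposited.

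**Figure D4:**
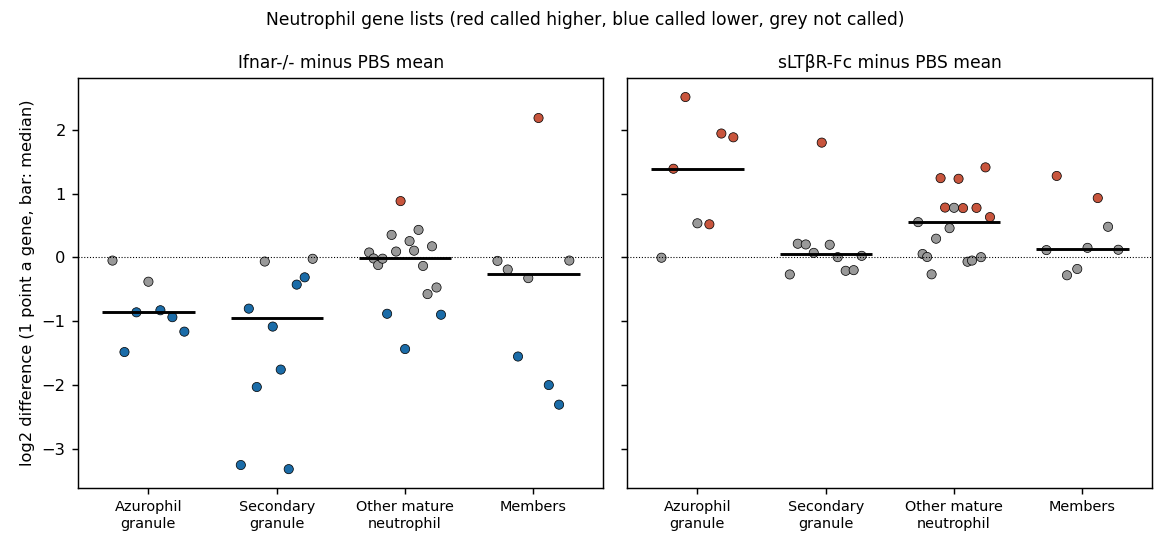
Log2 difference of each tested gene of 4 neutrophil lists on the knockout array (left) and the Fc-treated array (right), 1 point a gene by its brightest probe, with the list's median as a bar. Secondary granule genes have a median of -0.94 on the left and 0.048 on the right, and azurophil granule genes of -0.86 and 1.39.

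Signalling partners of Csf3r were measured next. Of all genes tested 7.96% were called higher on the Fc-treated array and 6.09% lower. There 6 of 16 tested genes of G-CSF signalling and granulocyte transcription rose and 1 fell, Stat5b (log2 -0.33 ± 0.11). Those that rose included Cebpb, the C/EBP factor of emergency granulopoiesis, at 1189 against 300 and 245 in the controls, Cebpe, the factor of secondary granule formation, at 909 against 312 and 254 (its further probes had a median of 0.17), and Gfi1, a repressor needed for granulocytes, at 1553 against 848 and 722. On the knockout array Cebpb alone of this list was called, at 813. Csf3, the gene of G-CSF itself, read 122 and 117 in the controls, 122 and 111. Socs3, a feedback inhibitor of G-CSF signalling, rose on the Fc-treated array from 967 and 984 to 1610.

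The activating receptors Clec4d and Trem1 pass their signals through adaptors. Tyrobp, which encodes DAP12, read 994 and 1086 on the controls and 1722 on both other arrays, and was called higher on each. Syk, the kinase that these adaptors recruit, rose on the knockout array, at 540 against 271 and 215. Trem3, which encodes another TREM receptor that signals through DAP12, read 784 and 495 in the controls, fell to 302 on the knockout array and rose to 1940 on the Fc-treated array. Of the 15 genes in this list 11 were tested, and Fcer1g, Card9, Clec4a2 and Trem2 were above background on no array. Clec4e, the lectin Mincle that pairs with the Clec4d product, read 119 and 107 in the controls, 114 and 120.0.

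Of the S100 genes outside calprotectin, S100a6 and S100a4, small calcium-binding proteins of many cell types, rose on the knockout array, at 1515 against 874 and 707 and at 435 against 265 and 214, where S100a8 and S100a9 fell. S100a11 rose on the Fc-treated array, at 1209 against 448 and 425. Tlr4, a receptor for calprotectin, read 190 and 179 in the controls, 161 and 185 and was not called. Cd36, listed with it, was called higher on the knockout array, at 161 against 123 and 108 in the controls, with 137 on the Fc-treated array. Its second control value was not above background. In the interleukin-1 system 9 of 13 listed genes were tested. Il1b and Il18r1, a chain of the interleukin-18 receptor, were called higher on the knockout array. The Il1b call was lost in several alternatives, as given above, and the further probes of Il18r1 gave 0.12. Il1r1, the signalling receptor that competes with the Il1r2 product, read between 122 and 125 on the 4 arrays.

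Among relatives and inhibitors of MMP9, Mmp8, the collagenase of secondary granules, fell on the knockout array (154 and 138 on the controls against 109, not above background), by at least 1.31-fold. Mmp12, a macrophage elastase, rose on both other arrays, at 224 and 173 against 125 and 118. Timp1 and Timp2, inhibitors of the enzyme, were not called in either comparison. Of the stefin list 4 of 8 genes were tested and Cst3, cystatin C, was called higher on the knockout array (10963 against 8012 and 7541). Ly6c1, a relative of Ly6g, fell on the knockout array to 408 and rose on the Fc-treated array to 2259 from 998 and 1012 on the controls. Ly6d, another gene of this family, rose on the knockout array to 2059 from 944 and 970, with 1016 on the Fc-treated array, and its further probe gave 1.41. Cd59a, of the same family, was called lower on the knockout array, at 284 against 669 and 437. Cyba, the membrane subunit of the NADPH oxidase, rose on both arrays, at 2434 and 2208 against 1060 and 1084. Of the chemokines that attract neutrophils, Cxcl2 read 599 on the Fc-treated array against 247 and 126 on the controls and was called higher, while Cxcl1 read 142 against 121 and 116 and was not. The chemokine receptor gene Cxcr4 was called higher on both arrays, at 917 on the knockout array and 521 on the Fc-treated array against 345 and 324. Pf4 was called lower on the knockout array, at 473 against 777 and 1883.

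Markers of other cell types moved on the same arrays as the members. Of all 14448 genes tested, 5.97% were called higher and 6.19% lower on the knockout array, and 7.96% and 6.09% on the Fc-treated array. The lists below are short, so a single call in a list cannot be set apart from these shares. The summed intensity of the 8 tested members was 16442 and 10181 in the controls, 4684 on the knockout array and 18846 on the Fc-treated array. S100a9 (10078, 5648, 1528 and 10518) and S100a8 (3877, 2510, 782 and 5939) carry much of this sum. On the knockout array 4 of the 8 members were not called and Retnlg rose. The sums below are likewise weighted to the brightest genes, such as Mpo among the precursor markers (25201 and 19311 in the controls). That of 5 neutrophil precursor markers was 40237 and 30513 in the controls, 17734 on the knockout array and 73188 on the Fc-treated array, with all 5 called lower on the first and higher on the second, and these 5 are also in the azurophil list. The 5 tested eosinophil markers summed to 5112 and 5790 in the controls, 4345 on the knockout array and 27944 on the Fc-treated array, with 4 called higher on the Fc-treated array and Ccr3 and Siglecf above background on no array. Mast cell and basophil markers summed to 9890 and 13856, 7785 and 30285 in the same order, with 6 of 7 called higher on the Fc-treated array. On the knockout array 2 of the 7 were called lower and 1 higher. Those lower were Mcpt8, at 1717 against 4958 and 5768, and Prss34, at 834 against 1797 and 3068. Gata2 was the higher one, at 2326 against 1062 and 1636. Monocyte markers summed to 1714 and 1340, 2040 and 2071, with Itgam and Ms4a6c near background. Of the 7 tested, 1 was called higher on the knockout array, Cx3cr1, and 1 on the Fc-treated array, F13a1. On the knockout array 5 of 6 dendritic cell markers and 3 of 4 B cell markers were called higher. On the Fc-treated array 2 of the 6 dendritic cell markers were called higher and 2 of the 4 B cell markers lower. The brightest probes of Itgax, Zbtb46 and Batf3 gave 1.25, 1.03 and 1.33 on the knockout array, and their further probes 0.13, 0.26 and 0.33. For Clec9a the values were 0.75 and 0.68. B cell markers summed to 13786 and 13390 in the controls, 20542 on the knockout array and 9089 on the Fc-treated array. T cell markers summed to 7527 and 9054, 5223 and 4291, with all 5 tested called lower on the Fc-treated array and 2 of them on the knockout array. Red pulp macrophage markers summed to 5826 and 2994, 2384 and 3708, so the controls differed here too. On the Fc-treated array 1 of these 7 markers, Spic, was called lower. On the knockout array 3 of them were called lower, as S100a8, S100a9 and Il1r2 were, and Adgre1 was called higher. Slc40a1, the iron exporter ferroportin, was 3.84-fold lower there, at 562 against 2913 and 1594, and Vcam1, an adhesion molecule, 3.43-fold lower on its brightest probe, at 235 against 1344 and 486, while its further probe gave -0.085. Of 3 erythroid markers 2 were called lower on the knockout array and 1 on the Fc-treated array, and of 4 NK cell markers 2 were called higher and 1 lower on the knockout array. Of 4 platelet markers 1 was called lower on the knockout array and 1 higher on the Fc-treated array. The part of any of these in the members' differences was not tested.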

How the data were processed

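Total RNA of sorted spleen cells was labelled with biotin and hybridised to single-colour Illumina mouse arrays, per the labels' protocols. The submitters' processing notes name GenomeStudio 2011.1. For each array the authors deposited a linear intensity of each of 45281 probes. How they treated background and scale is not stated by any label or header. The most frequent intensity of each array lay between 99.5 and 109, so background had been left in.

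Gene names came from the annotation table of the array platform. It gives a single gene symbol for 34885 probes, several for 18 and none for 10378, and only the first kind was used. The mouse RefSeq table held the gene identifier of 18992 of the 19057 symbols, and no symbol differed. RefSeq held promoter sequences for 9 of the 10 members. Probe positions were not used here.

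Each array's background limit was its most frequent intensity plus the 95% point of the noise below it, mirrored. Values were quantile normalised and converted to log2, without a floor, since equal values at a floor leave probes with no spread. The 23427 probes above the limit on at least 1 array entered 1 fit of 3 group means in limma 3.58.1 (R 4.3.3), with a mean-variance trend. A probe was called at a Benjamini-Hochberg adjusted p under 0.05 over all probes tested. A probe was 2-fold apart when its log2 difference was at least 1 against each control array. Only the control pair gives residual freedom, 1 degree, beside 42.7 prior degrees. No label says whether the control arrays hold different mice, so the spread behind every p-value is that of these arrays and could be technical. The number of arrays limits the precision. Log2 differences of dim probes are understated, because background remains. The fit was also run on simulated data, which cannot show whether the knockout and Fc-treated arrays vary as the control pair does.

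Genes in lists were represented by their brightest probe. Named list genes were drawn from those called or 2-fold apart in a comparison and the 2 brightest of each list. Likeness found the 3 nearest genes of each member, not all of which are named. Cxcr2, Csf3, Clec4e, Tlr4, Il1r1, Timp1, Timp2, Cxcl1, Igsf6 and Calr, where outside that rule, were chosen after their values were seen, for their role or to complete a list, and Ifnar1 to look at the label. The members and lists were chosen with earlier results of these data known. The closing section gives 12 alternatives.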

Additional observations from a re-analysis of the deposited data

How the results depend on the processing

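No paired analysis was possible because the groups share fewer than 2 replicate numbers. The falls of S100a8, S100a9 and Il1r2 and the rise of Retnlg on the Ifnar-/- array kept their direction under all 12 alternatives, and lost their calls only with background subtracted or with a floor at the background limit, where 0 probes and 0 members were called in any comparison. Of all probes, the count called on the Ifnar-/- array was 1602 with cyclic loess and 1398 without a trend. On the sLTβR-Fc array it was 7733 as deposited, 13961 with a common 75th percentile, 1151 with cyclic loess, 1983 with 1 probe a gene and 1350 without a trend. Between the lone arrays it was 720 with cyclic loess and 789 without a trend. Member probes called on the sLTβR-Fc array numbered 8 with a common 75th percentile, and 2 with 1 probe a gene and 2 without a trend. Member probes 2-fold apart there numbered 0 as deposited and with cyclic loess, 2 with background subtracted, and 1 to 3 when a control array was left out (3 without replicate 1). The median log2 difference of the tested member probes on the Ifnar-/- array was -0.32 as deposited. Between the lone arrays it was -0.72 with a common 75th percentile, -1.40 with background subtracted, -1.16 with probes above background on all 4 arrays and -0.72 with 1 probe a gene. On the sLTβR-Fc array it was 0.62 with a common 75th percentile, which moved the median of all probes to 0.47, and 0.40 with background subtracted. Reversals as deposited were Retnlg (-0.44), Clec4d (-0.040), the brighter Trem1 probe (-0.064) and Wfdc21 (-0.034) on the sLTβR-Fc array, the dimmer Trem1 probe on the Ifnar-/- array (-0.092; with a floor -0.025) and Mmp9 between the lone arrays (0.12). Reversals with a common 75th percentile were Clec4d (0.10), the third Csf3r probe (0.11) and the brighter Trem1 probe (0.092) on the Ifnar-/- array, and the dimmer Trem1 probe on the sLTβR-Fc array (0.51) and between the lone arrays (-0.31). The cause was not tested. Without a control array no spread can be estimated, so those are values with no test. Signals near background limit what Clec4d, Trem1 and Stfa2l1 can show.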
